A study of Mus musculus with 6 samples.

Results

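The PYHIN and pyrin-domain genes of the mouse are Ifi204, Pyhin1, Pydc4, Ifi205, Mnda, Aim2 and Pydc3, taken by symbol from an RNA-seq table of infarcted heart tissue. The table held 6 of the 7 among its 12969 genes, and Pydc3 is not analysed here. There were 3 libraries from mice with the genotype IRF3-/- (Irf3KO) and 3 from wild-type mice of the strain C57BL/6 (WT). All were males of about 12 weeks whose left anterior descending coronary artery had been ligated permanently, and tissue of the infarct was taken on day 4. The labels name neither the background strain of the Irf3KO mice nor which exons of Irf3 they lack. They also do not say how the 3 samples of a group were obtained, so each p-value covers the spread among these libraries, which may be technical.

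PYHIN proteins join a pyrin domain, a module through which proteins of the inflammasome bind each other, to a HIN domain that binds DNA. Aim2 senses double-stranded DNA in the cytosol and recruits the adaptor Pycard (ASC), which activates caspase-1. Most other family members are nuclear proteins of leukocytes, many of them induced by interferon, and in the mouse the genes lie side by side on chromosome 1. Irf3 is a transcription factor that switches on interferon beta and other antiviral genes after nucleic acids have been sensed.

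Since these genes stand next to each other, their RefSeq promoters (GRCm38.p6, 250 bases before to 50 bases after the start site) are shown first. The core of the interferon-stimulated response element, GAAA and after any 2 bases GAAA again, was searched on both strands (on the other it reads TTTC, 2 bases and TTTC). RefSeq now calls Pyhin1 Ifi209, Pydc4 Ifi213 and Mnda Ifi211. In the promoter of Pydc4, the member with the largest fold in mean RPKM, the motif in capitals ran from position -73 to -64, with the start site at 0 (chr1:173599223-173599522, minus strand).
Pydc4: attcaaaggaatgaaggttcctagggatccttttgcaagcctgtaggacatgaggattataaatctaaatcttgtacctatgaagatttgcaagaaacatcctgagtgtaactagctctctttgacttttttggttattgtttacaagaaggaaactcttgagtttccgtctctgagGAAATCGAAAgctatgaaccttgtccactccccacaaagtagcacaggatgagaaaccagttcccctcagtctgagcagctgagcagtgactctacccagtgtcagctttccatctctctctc
The promoter of Aim2, the DNA sensor of the inflammasome, held no such letters (chr1:173420354-173420653, plus strand).
Aim2: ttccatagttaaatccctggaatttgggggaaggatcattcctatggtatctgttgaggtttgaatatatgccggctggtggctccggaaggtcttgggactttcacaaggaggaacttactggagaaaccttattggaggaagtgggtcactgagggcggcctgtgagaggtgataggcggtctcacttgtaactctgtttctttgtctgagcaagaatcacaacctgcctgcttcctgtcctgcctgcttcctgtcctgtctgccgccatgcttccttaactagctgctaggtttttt

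The motif stood in the promoters of 3 of the 5 members that have one in the RefSeq table (Pydc4, Mnda and Ifi205), and no entry was found for Ifi204. With 4 further PYHIN genes of the cluster, Gm4955, Mndal, Ifi203 and AI607873, it stood in 7 of 9 genes, against 3.99% of the 27025 genes and 3.44% of the 32851 promoters of that length. Windows of 40 bases around it show how alike these promoters are, with the matched 10 letters in capitals.
Pydc4: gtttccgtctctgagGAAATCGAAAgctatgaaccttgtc
Gm4955: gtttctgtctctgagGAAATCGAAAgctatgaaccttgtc
Pyhin1: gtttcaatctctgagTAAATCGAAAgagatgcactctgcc
Mndal: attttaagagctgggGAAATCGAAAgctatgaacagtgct
Mnda: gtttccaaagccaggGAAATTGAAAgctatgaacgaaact
Ifi205: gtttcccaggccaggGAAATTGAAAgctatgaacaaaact
AI607873: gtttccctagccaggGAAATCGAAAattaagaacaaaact
The windows lie at chr1:173599321-173599360 for Pydc4, chr1:173491334-173491373 for Gm4955, chr1:173880199-173880238 for Mndal, chr1:173913059-173913098 for Mnda, chr1:174031865-174031904 for Ifi205 and chr1:173741826-173741865 for AI607873, all on the minus strand, and at chr1:173630765-173630804 on the plus strand for Pyhin1. The exact 10 letters of Pydc4, GAAATCGAAA, chosen after the promoters had been read, occurred in 0.0487% of all promoters. These belonged to 16 genes, 7 of them among the 13 genes of the PYHIN cluster. Counted from 1 at the first of these letters, Mnda and Ifi205 differed from them by C6T and Pyhin1 by G1T, so that Pyhin1 did not hold the searched motif. In Aim2 the nearest stretch on the strand of the gene had 4 mismatches to these letters. The other strand was not scanned for near matches, so a closer one there is not excluded. The window of Ifi203, which is not printed, differed from that of Mndal at 0 of 40 bases. The window of Pydc4 differed from that of Gm4955 at 1 of 40 bases and from that of Pyhin1 at 9. That of Ifi205 differed from that of Mnda at 3, so the matches are not independent of each other. A match says only that the letters are there. Of the members with the motif, Pydc4 passed the threshold for a lower level in Irf3KO in the test below, and Mnda and Ifi205 did not. Of those without it, Pyhin1 passed and Aim2 did not. Whether the motif bears on the change was not tested.

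**Figure D1:**
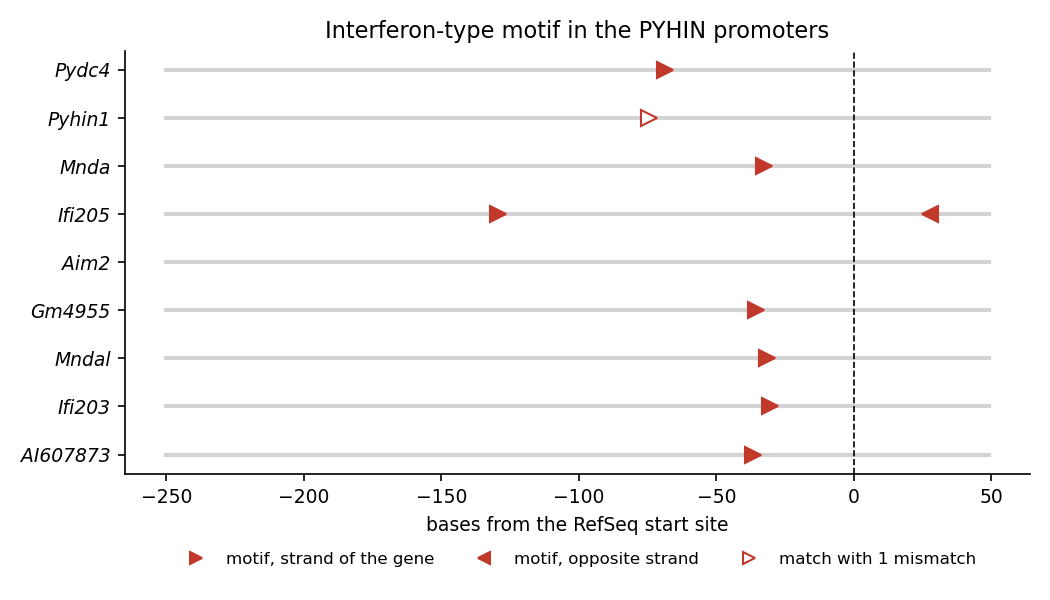
Places of the searched motif (filled triangles) in 9 PYHIN promoters, in bases from the RefSeq start site; the direction of a triangle gives the strand and the open triangle the match of Pyhin1 with 1 mismatch. The motif begins at -40 in Gm4955, -41 in AI607873, -36 in Mndal, -35 in Ifi203, -37 in Mnda, -73 in Pydc4 and -134 in Ifi205, which has a second match past the start site; Aim2 has none, and where Mndal and Ifi203 have several start sites the one with the motif on the gene's strand is drawn.

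All libraries were compared on RPKM, reads scaled for gene length and library size. The steps between low values implied 14.8 to 61.8 M reads in the Irf3KO libraries and 15.7 to 20.8 M reads in the WT libraries. Irf3 itself was still read, at 7.40, 8.74 and 7.68 RPKM in Irf3KO and 13.76, 13.87 and 11.56 RPKM in WT (limma adjusted p = 0.344), and a total per gene does not show which exons these reads cover. Irf3KO replicate 2 stood apart, with a mean correlation of 0.907 with the other libraries against 0.941 to 0.966 for the rest. Of the 25 macrophage and monocyte markers 23 were tested, 0 were called by limma (4 had an unadjusted p under 0.05, all lower), none was at 0 in any library, and their RPKM summed to 3071 to 7332 in Irf3KO and 4509 to 8639 in WT. Relative to the WT mean their median log2 level was 0.07, -1.40 and -0.23 in Irf3KO replicates 1 to 3. Cardiomyocyte markers (12 of 12 tested, 0 called, 0 at an unadjusted p under 0.05, none at 0) summed to 13800 to 23470 RPKM in Irf3KO and 6634 to 18370 RPKM in WT. Sums lay apart between the groups for dendritic cell markers (7 tested, Bst2, which interferon induces, among them), at 44.0 to 91.4 RPKM in Irf3KO and 118.5 to 184.3 RPKM in WT, and for 10 fibroblast markers, at 3823 to 5331 RPKM in Irf3KO and 6157 to 6839 RPKM in WT. Over all tested genes limma called 0.503% in either direction, so 0 calls in such short lists do not show the markers unchanged. The part of these cell types in the results below was not tested.

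Pydc4 and Pyhin1 fell in infarcts of Irf3KO mice, by 14-fold and 4.37-fold in mean RPKM. Ifi204 and Mnda stood 2.92-fold and 2.77-fold lower, beyond the spread of the libraries but short of the threshold across all genes. Ifi205 was 1.65-fold lower and Aim2 1.54-fold lower, and neither passed. Thus 2 of 6 members were called lower and none higher, where 0.356% of the 12913 tested genes were called lower and 0.503% in either direction. Of the 2 members called, Pydc4 passed the filter of 1 RPKM through WT alone. With a filter of 5 RPKM Pydc4 was not tested, and 1 member was called (0.253% of tested genes called lower). Leaving out Irf3KO replicate 2 made the count 4 of 6 members, with 0.534% of tested genes called lower. Leaving out WT replicate 1 made it 1 (0.178% of tested genes). Leaving out Irf3KO replicate 3, WT replicate 2 or WT replicate 3 made it 0 (0.139%, 0.178% and 0.116% of tested genes). An unadjusted limma p under 0.05 with a lower level was found for 5 of 6 members and 5.96% of tested genes, and a log2 fold change below -1 for 4 of 6 members and 1.86% of tested genes. For 5 of 6 members every Irf3KO library lay below every WT library, which held for 11.8% of tested genes. The median log2 fold change on log2(RPKM + 1) was -1.28 over the members and -0.09 over all tested genes. In a piece of tissue, fewer cells of a type and less RNA per cell cannot be told apart.

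**Figure D2:**
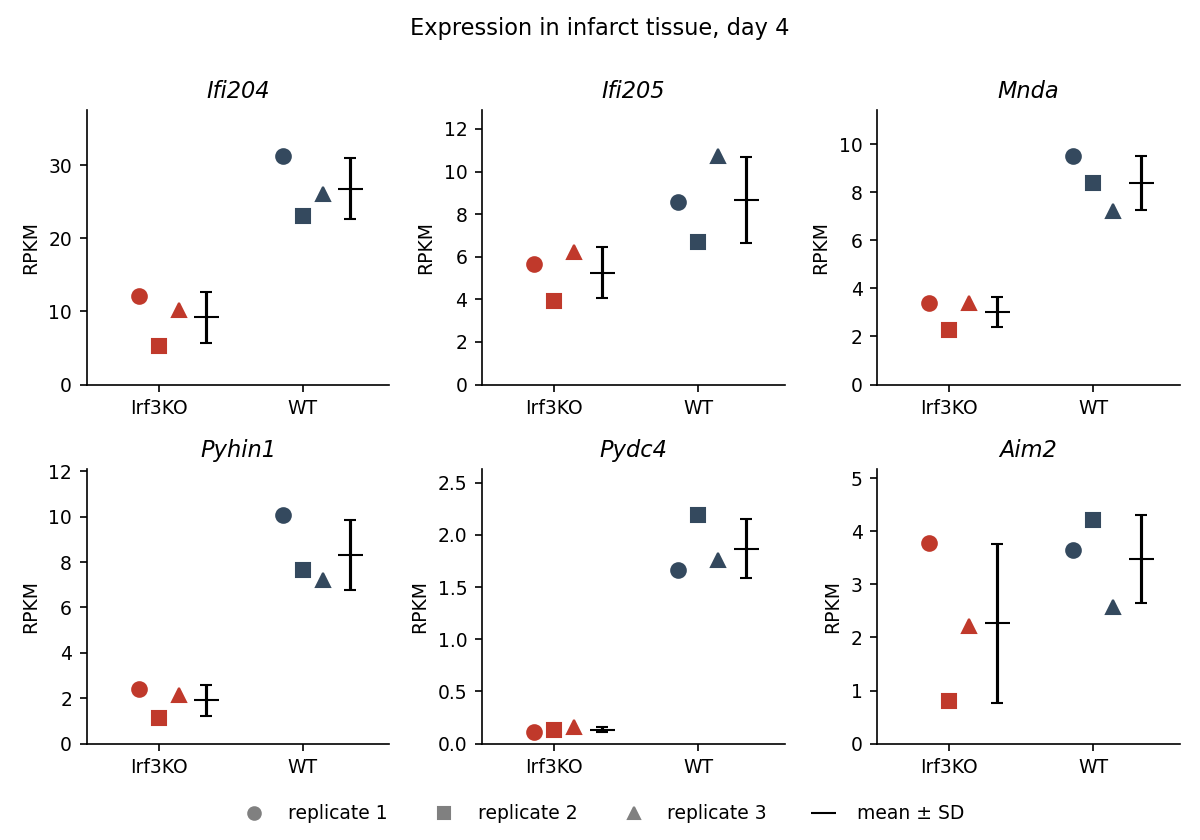
RPKM of the 6 members in each library (1 point per library, shape by replicate number, bar for the mean ± SD of 3), Irf3KO left and WT right, each panel with its own axis from 0. Pydc4 stays at or under 0.16 RPKM in Irf3KO and at or above 1.66 RPKM in WT, while the groups overlap for Aim2.

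Pydc4, which encodes a pyrin-domain protein of the family, had 0.11, 0.13 and 0.16 RPKM in Irf3KO and 1.66, 2.19 and 1.76 RPKM in WT. The groups lay far apart, the highest Irf3KO library being at 9.64% of the lowest WT library. The mean was 0.133 ± 0.025 RPKM in Irf3KO and 1.87 ± 0.28 RPKM in WT (SD, n = 3 each). These values rest on about 7, 10 and 41 reads in Irf3KO and 131, 191 and 116 reads in WT. The 95% exact Poisson intervals, which cover counting error only, reached at most 0.239 RPKM in Irf3KO and came down to 1.39 RPKM at the least in WT, so the groups stayed apart within counting error. On log2(RPKM + 1) the change was -1.34 ± 0.15 (SE; 95% interval -1.68 to -0.99; limma adjusted p = 0.00926), which ranked 24 of the 12913 genes by p. This scale compresses low values, and with a pseudocount of 0.1 the change was -3.07. Pydc4 only just passed the filter, which kept genes averaging 1 RPKM or more, and it did so through WT alone. The call was lost without Irf3KO replicate 3, WT replicate 2 or WT replicate 3 (adjusted p = 0.0608, 0.0632 and 0.0774).

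Pyhin1 shares its symbol with human PYHIN1, a nuclear protein that binds DNA. It had 2.42, 1.15 and 2.14 RPKM in Irf3KO and 10.07, 7.66 and 7.20 RPKM in WT. The groups did not overlap, the highest Irf3KO library reaching 33.6% of the lowest WT library. The mean was 1.90 ± 0.67 RPKM in Irf3KO and 8.31 ± 1.54 RPKM in WT (SD, n = 3 each), on 73 to 462 reads in Irf3KO and 396 to 664 reads in WT. The log2 fold change was -1.70 ± 0.24 (SE; 95% interval -2.24 to -1.15; limma adjusted p = 0.0268). The call was lost without Irf3KO replicate 3, or WT replicates 1, 2 or 3 (adjusted p = 0.0866, 0.13, 0.107 and 0.126), and kept without Irf3KO replicate 2, where the change was -1.49.

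Ifi204, the most abundant member, encodes p204, a nuclear and cytoplasmic DNA-binding protein related to human IFI16. It had 12.11, 5.27 and 10.14 RPKM in Irf3KO and 31.26, 23.01 and 26.05 RPKM in WT. Irf3KO replicate 2 was the lowest, and the highest Irf3KO library was at 52.6% of the lowest WT library. The log2 fold change was -1.51 ± 0.29 (SE; 95% interval -2.17 to -0.84; limma adjusted p = 0.0943). Without Irf3KO replicate 2 the change was smaller, -1.19, and passed the threshold (adjusted p = 0.0365).

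Mnda shares its symbol with the human myeloid cell nuclear differentiation antigen, a nuclear protein of myeloid cells. It had 3.40, 2.28 and 3.38 RPKM in Irf3KO and 9.50, 8.39 and 7.24 RPKM in WT. The groups did not overlap, and the highest Irf3KO library was at 47.0% of the lowest WT library. The log2 fold change was -1.23 ± 0.21 (SE; limma adjusted p = 0.0572), and without Irf3KO replicate 2 it was -1.09 with an adjusted p of 0.0285.

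Ifi205, an interferon-inducible nuclear protein of mouse myeloid cells, had 5.66, 3.91 and 6.21 RPKM in Irf3KO and 8.57, 6.68 and 10.73 RPKM in WT. The groups did not overlap but nearly met, the highest Irf3KO library being at 93.0% of the lowest WT library. The log2 fold change was -0.62 ± 0.24 (SE; limma adjusted p = 0.556).

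Aim2, the DNA sensor of the inflammasome, had 3.78, 0.80 and 2.21 RPKM in Irf3KO and 3.64, 4.21 and 2.58 RPKM in WT. Here the groups overlapped: Irf3KO replicate 1 was above 2 of the 3 WT libraries, and only replicate 2 was far below. The log2 fold change was -0.55 ± 0.34 (SE; 95% interval -1.34 to 0.24; limma adjusted p = 0.556), and without Irf3KO replicate 2 it was -0.18. The interval holds both no change and a fall as large as that of Mnda.

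**Figure D3:**
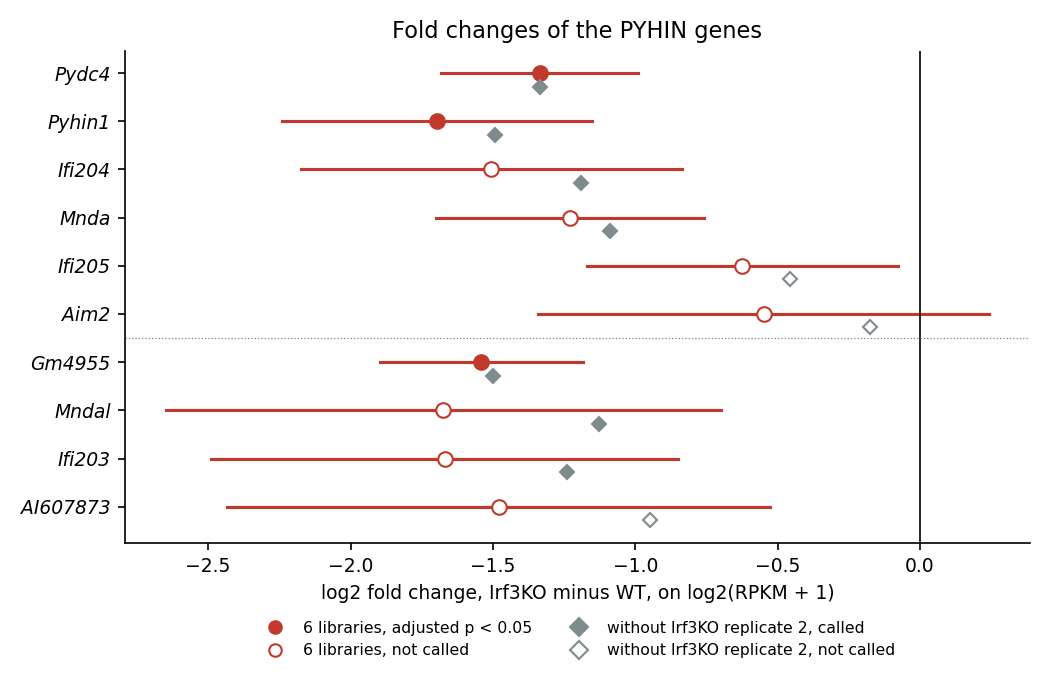
Log2 fold change (Irf3KO minus WT) on log2(RPKM + 1) with its 95% interval for the 6 members, above the dotted line, and 4 further PYHIN genes, below it; diamonds give the value without Irf3KO replicate 2, and filled marks have an adjusted p under 0.05. Pydc4, Pyhin1 and Gm4955 are filled with and without that library, and Ifi205 and Aim2 are open in both.

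In Irf3KO the order of mean levels was Ifi204, Ifi205, Mnda, Aim2, Pyhin1 and Pydc4, and in WT it was Ifi204, Ifi205, Mnda, Pyhin1, Aim2 and Pydc4. Pyhin1 and Aim2 thus changed places: Pyhin1 was above Aim2 in 1 of 3 Irf3KO libraries and in all 3 WT libraries. In Irf3KO the ranges overlapped between Ifi204 and Ifi205, Mnda and Aim2, and Aim2 and Pyhin1. In WT Ifi205, Mnda and Pyhin1, at 8.66 ± 2.03, 8.38 ± 1.13 and 8.31 ± 1.54 RPKM (SD, n = 3 each), could not be ordered. The difference in log2(RPKM + 1) between Pyhin1 and Aim2 averaged -0.09 ± 0.37 in Irf3KO and 1.06 ± 0.29 in WT (SD, n = 3 each). This shift of -1.15 was the widest of the 15 pairs of members on this scale, which compresses low values such as those of Pydc4. With a pseudocount of 0.1 the changes were -3.07 for Pydc4, -2.12 for Pyhin1 and -0.81 for Aim2, so the ranking of pairs depends on the scale. For Pyhin1 and Aim2 the two-sided exact permutation p was 0.1, the smallest that 3 against 3 can give, and 0.214 adjusted over the 15 pairs. In 7 pairs p was 0.1, among them Ifi204, Pyhin1 and Pydc4 each against Ifi205, and Ifi204 and Pyhin1 each against Aim2. No pair could pass at this size.

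Like the macrophage list, 5 of the 6 members were lowest in Irf3KO replicate 2, while Pydc4 was not. Each member was therefore also set against the geometric mean RPKM of the 23 tested genes of that list. This mean was 78.5, 34.3 and 68.8 in Irf3KO and 116, 71.2 and 68.7 in WT. Ifi204 then stood at 15.4%, 15.4% and 14.7% of that level in Irf3KO and at 27.0%, 32.3% and 38.0% in WT. For Ifi204 the Irf3KO libraries, which differed in RPKM, nearly coincided on this measure, while for Pydc4 and Mnda they did not. Pyhin1 was at 3.08%, 3.35% and 3.11% in Irf3KO and at 8.69%, 10.8% and 10.5% in WT. Pydc4 was at 0.140%, 0.379% and 0.233% in Irf3KO and at 1.43%, 3.08% and 2.56% in WT. Mnda was at 4.33%, 6.64% and 4.91% in Irf3KO and at 8.20%, 11.8% and 10.6% in WT. For these 4 genes every Irf3KO library lay below every WT library, which on this measure held for 1.65% of tested genes. Ifi205 was at 7.21% to 11.4% in Irf3KO and 7.39% to 15.6% in WT, and Aim2 at 2.33% to 4.81% in Irf3KO and 3.14% to 5.91% in WT, where the groups overlapped. Subtracting the list's median log2 level from each library instead (macrophage list scaling) left changes of -1.29 ± 0.57 for Pyhin1 and -0.93 ± 0.62 for Pydc4 (SE; limma adjusted p = 0.9999 each), and neither was then called. The same without Irf3KO replicate 2, an alternative chosen after the data were seen, gave -1.62 ± 0.42 and -1.46 ± 0.46 (adjusted p = 0.052 and 0.22).

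**Figure D4:**
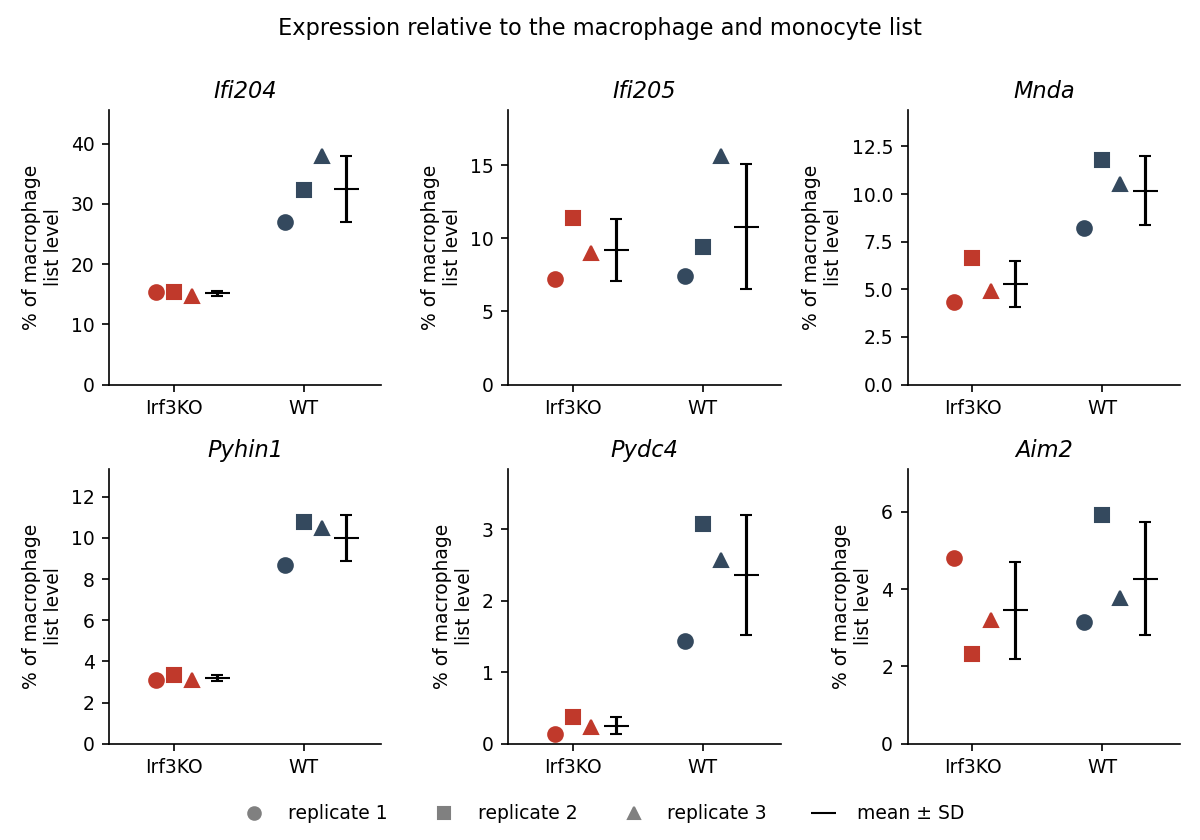
The 6 members in each library as a percentage of the geometric mean RPKM of 23 macrophage and monocyte markers (1 point per library, bar for the mean ± SD of 3), Irf3KO left and WT right. Ifi204 lies at 14.7% to 15.4% in Irf3KO and 27.0% to 38.0% in WT; Ifi205 and Aim2 overlap between the groups.

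The 4 further PYHIN genes of the table were all lower in Irf3KO. Gm4955 (Ifi206 in RefSeq) fell 12.6-fold, with 0.20, 0.13 and 0.26 RPKM in Irf3KO and 2.33, 2.86 and 2.27 RPKM in WT. Its change was -1.54 ± 0.16 (SE; limma adjusted p = 0.00506), and it stayed called whichever library was left out (adjusted p = 0.00705 to 0.0422). The call was lost under macrophage list scaling (-1.13, adjusted p = 0.9999) and under that scaling without Irf3KO replicate 2 (-1.63, adjusted p = 0.0918). Like Pydc4, Gm4955 passed the filter on low values through WT alone. Mndal had 11.31, 2.41 and 8.21 RPKM in Irf3KO and 21.97, 21.97 and 22.79 RPKM in WT. AI607873 (Ifi207 in RefSeq), the most abundant PYHIN gene, had 14.83, 3.87 and 12.70 RPKM in Irf3KO and 31.95, 27.12 and 23.76 RPKM in WT. Ifi203 had 4.71, 1.11 and 3.69 RPKM in Irf3KO and 9.46, 12.20 and 12.17 RPKM in WT. For each of these 3 every Irf3KO library lay below every WT library, which held for 11.8% of tested genes. None of the 3 passed (log2 fold changes -1.67 ± 0.42, -1.48 ± 0.42 and -1.67 ± 0.36, SE; limma adjusted p = 0.272, 0.361 and 0.139). In each Irf3KO replicate 2 was lowest by far. Without it Mndal was at -1.13 (adjusted p = 0.0345) and Ifi203 at -1.24 (adjusted p = 0.0285), both past the threshold, and AI607873 was at -0.95 (adjusted p = 0.0814). Summed over all 10 PYHIN genes the level was 58.5, 21.1 and 49.1 RPKM in Irf3KO and 130, 116 and 117 RPKM in WT.

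Reads of one PYHIN gene can match another. In GENCODE M21 transcripts, 72.8% of the 50-base stretches of Mnda occurred in another gene of the cluster, as did 49.6% of Ifi205, 29.7% of Ifi204, 29.3% of Pyhin1, 15.1% of Pydc4 and 0% of Aim2. For Mnda the closest gene was Ifi205, which held 44.7% of its stretches. No source used here says how reads with several matches were counted, so the levels of all members but Aim2 are uncertain to this extent, and those of Mnda and Ifi205 most.

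Among genes beside the cluster none was called. Of 13 tested protein-coding genes within 25 places on either side, limma called 0 (1 had an unadjusted limma p under 0.05), with a median log2 fold change of -0.0049 and a range of -0.59 to 0.39. Over all tested genes 0.503% were called in either direction, so 0 calls among 13 genes does not set them apart. Darc, a chemokine-binding receptor of red cells and venules, was the nearest of these genes to Aim2. It was at 1.28, 0.76 and 1.21 RPKM in Irf3KO and 2.06, 1.83 and 1.76 RPKM in WT (-0.48 ± 0.17, SE; limma adjusted p = 0.551). In the list of named neighbours 11 genes were tested and limma called 0 (1 at an unadjusted p under 0.05), which again does not set them apart. The 4 of smallest p were Darc, Pex19 (0.38), Dusp23 (0.35) and Pigm (-0.43). Both ends of the cluster, Aim2 and Ifi205, had the smallest changes among the 10 of its 13 genes that the table held.

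**Figure D5:**
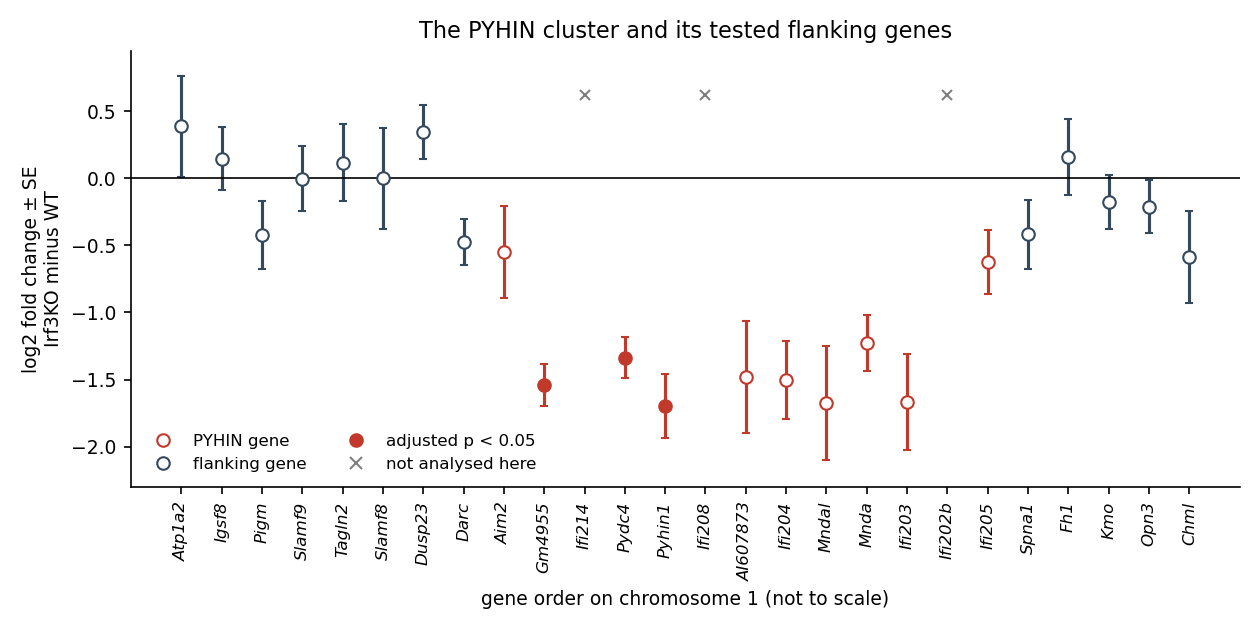
Log2 fold change ± SE (Irf3KO minus WT) of the PYHIN genes (red) and of tested flanking genes (dark) in their order on chromosome 1, not to scale; filled points have an adjusted p under 0.05 and crosses are genes not analysed here. The 8 PYHIN genes between Aim2 and Ifi205 lie between -1.23 and -1.70, and the flanking genes between -0.59 and 0.39.

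The inflammasome that Aim2 feeds into showed no call. Of 22 genes on the list 18 were tested and 0 were called, where 0.503% of all tested genes were called in either direction. At that share so short a list can hold 0 calls, so the count does not show these genes unchanged. Of the 18, 16 lay below 0, and 2 were lower at an unadjusted limma p under 0.05 (5.96% of all tested genes). The median log2 fold change was -0.36. Pycard, the adaptor, had 25.69, 17.94 and 21.84 RPKM in Irf3KO and 29.94, 14.38 and 17.48 RPKM in WT (0.13 ± 0.28, SE; limma adjusted p = 0.829). Casp1, the protease it activates, was at -0.15 ± 0.28 (adjusted p = 0.791). Il18, a cytokine that caspase-1 cleaves, was at 6.45, 1.73 and 4.26 RPKM in Irf3KO and 9.73, 6.72 and 8.34 RPKM in WT (-0.95 ± 0.35, SE; adjusted p = 0.556). Nlrc4, Naip5 and Nek7, of other inflammasomes, were at -0.57, -0.65 and -0.58 (adjusted p = 0.556 each). This list's median log2 level relative to WT was 0.05, -0.97 and -0.18 in Irf3KO replicates 1 to 3, so that replicate 2 was the lowest.

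Among 13 tested genes of DNA sensing and interferon signalling, limma called 2 lower and 0 higher, and the median log2 fold change was -0.72. Of the 13, 12 lay below 0, and 7 were lower at an unadjusted limma p under 0.05. Over all tested genes 0.356% were called lower and 5.96% were lower at such an unadjusted p. Irf7, a factor through which interferon induces more interferon, had 4.79, 4.83 and 6.25 RPKM in Irf3KO and 40.56, 24.43 and 32.68 RPKM in WT (-2.40 ± 0.23, SE; limma adjusted p = 0.00367). Zbp1, a sensor of nucleic acids in the Z form, was the other gene called, at -1.86 ± 0.23 (adjusted p = 0.0132). Tlr9, a DNA sensor of endosomes, was at -1.03 ± 0.27 (adjusted p = 0.313) and did not pass. Outside this list Isg15, a check of the genotype and an antiviral ubiquitin-like protein, was at 7.96, 6.14 and 8.57 RPKM in Irf3KO and 53.04, 40.09 and 41.49 RPKM in WT (-2.42 ± 0.21, SE; adjusted p = 0.00227).

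Some genes followed the members closely over the 6 libraries, by Pearson's r on log2(RPKM + 1), given as a description of libraries that share the difference between genotypes and Irf3KO replicate 2. For Ifi204 these were Trim30d (r = 0.9997), Aoah (0.9975), Zfp462 (0.9947), Ifih1 (0.9927) and Darc (0.9926). For Pyhin1 they were Mnda (0.997), Dhx58 (0.997), Capza1 (0.996), Glb1 (0.994) and Slfn1 (0.994). For Pydc4 they were Ercc2 (0.992), Cercam (0.988), Rpl29 (0.987), Rps3a (0.985) and Trafd1 (0.985). Gm4955, which the naming rule passed over for its symbol, had r = 0.998 with Pydc4. Among pairs of members, Ifi204 and Pyhin1 had r = 0.983, and Pydc4 and Aim2 the lowest, 0.541.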

How the data were processed

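RNA-seq of infarct tissue was analysed in 3 Irf3KO and 3 WT libraries. The authors deposited RPKM values, rounded to 2 decimals, with a length in bases for each gene in another column. The submitters' processing notes name STAR 2.3.0, HTSeq 0.6.0, edgeR 3.8.6, Picard 1.100 and SAMtools 0.1.18.0, with NCBIM37 (mm9) as build. Columns were matched to samples by title, and 5 lines with a split name were repaired; 19 symbols had become dates. The members, lists and tests were chosen with earlier results of these data known.

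The test was limma 3.58.1 (R 4.3.3) with a mean-variance trend, two-sided, on log2(RPKM + 1) of all 12913 genes averaging 1 RPKM or more, with Benjamini-Hochberg adjustment and a threshold of 0.05. A log2 fold change is on that scale and understates the change of low genes, while an n-fold difference is the ratio of mean RPKM. Negative values mean lower in Irf3KO. Exact permutation tests used SciPy 1.17.1. Depth and approximate reads came from the 1-read steps of low values, the depth being chosen so that these values lay near whole numbers. At that depth 100% of the 40 to 163 values used per library lay within 0.2 reads of a whole number. This describes the fit and is no separate check. The fewest values, 40, were those of Irf3KO replicate 3. The fit and the depth estimate were tested on simulated data.

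Named genes were all PYHIN genes of the table, Irf3 and Isg15 as checks, the 4 of smallest p in each pathway or neighbour list, and the 5 most correlated with Ifi204, Pyhin1 and Pydc4, passing over Gm, LOC and Rik symbols. One gene that this rule names is not reported here. Pycard and Casp1 were added after their values were seen. Promoters and gene order are RefSeq GRCm38.p6, and no coordinates were converted. Bcl2l12, the neighbour of Irf3 also kept as a check, stood at 0.773 ± 0.535 RPKM in Irf3KO and 2.91 ± 0.66 RPKM in WT (SD, n = 3 each). Marker lists of lymphocytes, neutrophils, dendritic cells, fibroblasts and endothelium had 5, 6, 7, 10 and 8 tested genes. Limma called 0 in each (2, 0, 2, 2 and 0 at an unadjusted p under 0.05, all lower), where 0.503% of all tested genes were called. The medians were -0.30, -0.14, -0.20, -0.58 and -0.13. None of their genes was at 0 in any library, and their part in the results was not tested.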

Additional observations from a re-analysis of the deposited data

How the results depend on the processing

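The log2 fold changes of the 10 PYHIN genes stayed negative in each alternative in which they were tested. Pydc4, Aim2 and Gm4955 were not tested with a filter of 5 RPKM. The members called, 2 in the analysis reported, numbered 1 with a filter of 5 RPKM, 4 after quantile normalization, 4 with the replicate block, 0 with macrophage list scaling, and 0 with that scaling without Irf3KO replicate 2. They numbered 3 with median-of-ratios scaling, and 2 with a pseudocount of 0.1 or 0.5, without the filter or without the mean-variance trend. They numbered 0 to 4 when each library was left out. All genes called, 65 in the analysis reported, numbered 34, 104, 250 and 16 in the first 4 of these settings, with 5 of the 16 lower against 46 of 65, and 21 to 96 when each library was left out. Under macrophage list scaling Pyhin1 was at -1.29 and Pydc4 at -0.93, with all libraries, and at -1.62 and -1.46 without Irf3KO replicate 2. Leaving out each library gave -1.83 to -1.49 for Pyhin1 and -1.39 to -1.26 for Pydc4. The cause of these losses was not tested. The median of all tested genes was -0.09, 0.02 with median-of-ratios scaling, 0.01 with quantile normalization and 0.32 with macrophage list scaling.

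The replicate numbers did not pair the libraries: same-numbered libraries had correlations of deviations of 0.129, -0.0978 and -0.102, and not every library correlated best with its own number. Under the block Ifi204 and Mnda were called as well (adjusted p = 0.00132 and 0.0123). Array weights could not be fitted, as the estimate of the weights did not converge. Depth limits Pydc4 and Gm4955 in Irf3KO, at 7 to 49 reads.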
